A study of Mus musculus with 10 samples.

Results

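Aquaporins are membrane channels that carry water, and in some members glycerol or other small solutes, across cell membranes. In the kidney, Aqp1 carries water across the proximal tubule and the thin descending limb. Vasopressin acts through its receptor Avpr2 and cyclic AMP to move Aqp2 into the apical membrane of collecting duct principal cells and to raise its transcription, while Aqp3 and Aqp4 form the water exit on the basolateral side. Aqp6 sits in vesicles of intercalated cells, Aqp7 is a water and glycerol channel of the straight proximal tubule, and Aqp11 lies in the endoplasmic reticulum of proximal cells. The 7 genes Aqp1, Aqp2, Aqp3, Aqp4, Aqp6, Aqp7 and Aqp11 were taken by symbol from tables that name 28808 genes in all, and each was present in all 10 tables.

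The tables hold single-cell RNA counts of kidney cortex from mice aged 4 weeks, made by Drop-seq, where droplets pair cells with beads that carry cell barcodes. There was 1 library of normal kidney as the control, 1 library of injured kidney for each of days 1, 2 and 4, and 2 for each of days 7, 11 and 14. The labels state no kind of injury, sex, strain or animal, and do not say whether libraries of a day came from different animals, so the p-values measure only the spread between libraries. The study asks, per its title, whether injury reactivates a developmental program and loosens lineage identity. Levels are given in CPM, the UMIs (unique molecules counted) of a gene scaled to 1000000 UMIs of the same cells, and intervals are 95% counting intervals that cover counting error only. Because each gene is counted at its 3' end, levels are compared within a gene and not between genes.

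After filtering, 52797 of 64803 barcodes were kept, 3568 to 6941 per library, with 7091848 to 29446508 UMIs per library. A cell was put in a gate, a nephron segment or other cell type, when its raw UMIs of that type's marker genes led all other types, and none of the 7 aquaporins was a marker. Gates held 42822 cells, and any pair of libraries shared at most 4 barcodes. Gated cells made up 91.3% of kept cells in the control and 53.7%, 77.3% and 69.4% on days 1, 2 and 4. The day 7 pair had 55.5% and 68.2%, and days 11 and 14 had 90.65% to 94.53%. The proximal gate held 60.7% of cells in the control, 11.5% and 12.7% on day 7, and 63.9% to 74.3% on days 11 and 14. Its cells held a mean of 49.2 marker UMIs in the control, 12.5 on day 1, 10.4 and 23.3 on day 7, and 28.8 to 45.6 on days 11 and 14. Cells with too few marker UMIs are left out of its share and levels. Cells with at least 3 haemoglobin UMIs made up 42.5% of the day 1 library, 29.1% and 0.427% of the day 7 libraries, 16.2% and 12.3% of the day 11 libraries and at most 4.11% of the others. For tests, UMIs were summed per library and gate and fitted with edgeR's quasi-likelihood test with TMM scaling. Only days 7, 11 and 14 have replicates, the single control was taken to be as variable as these, and days 1, 2 and 4 entered no test. With scaling by total UMIs in place of TMM, the median gene moved by 0.73 (log2) in all cells, 0.91 in the proximal gate and 0.44 in the principal gate between control and day 7. The same scaling moved the median gene by -0.74, -0.85 and -0.34 between days 7 and 11.

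Each aquaporin except Aqp6 had most of its UMIs in 1 gate, a segment it is known from. The principal gate, which also takes in connecting tubule cells, held 75.6% of all 68608 Aqp2 UMIs, 63.0% of the 29519 Aqp3 UMIs and 73.4% of the 3780 Aqp4 UMIs. The proximal gate held 83.2% of the 11915 Aqp1 UMIs, 90.5% of the 1062 Aqp7 UMIs and 91.2% of the 3220 Aqp11 UMIs. These shares also reflect the size of the gates, as the proximal gate held 27629 of the 52797 kept cells and the principal gate 2943. The intercalated gate held 42.7% of the 2887 Aqp6 UMIs, while 34.2% lay in ungated cells and 18.3% in the principal gate. Within libraries, the level in that gate exceeded the level in all other gated cells, taken as 1 pool, in 10 of 10 libraries for every member except Aqp1. Aqp1 was higher in 9 of 10. A single other gate could still be higher. For Aqp1 the thin limb gate was, at 166 to 2981 CPM in libraries with at least 10 of its cells. The endothelial gate was so in some libraries, with 43.1 against 13.3 on day 1. For Aqp11 the first day 7 library had 2.86 against 2.24, on very few UMIs.

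The mean log2 difference over libraries, with 10 CPM added to both levels, was 6.60 ± 1.28 (SD, n = 10) for Aqp2, 5.05 ± 0.77 for Aqp3 and 4.31 ± 0.68 for Aqp4 in the principal gate. It was 4.66 ± 0.86 for Aqp6 in the intercalated gate. In the proximal gate it was 1.48 ± 1.14 for Aqp1, 1.29 ± 0.69 for Aqp11 and 1.07 ± 0.28 for Aqp7. With 1 CPM added instead of 10 these 3 were at 1.87, 2.29 and 3.12, so their size and order depend on that amount. The exact two-sided permutation p by sign flips was 0.00195 for each member but Aqp1 (adjusted 0.00228), the smallest 10 libraries can give, and 0.00586 for Aqp1 (adjusted 0.00586). The exception for Aqp1 was day 1, where the proximal gate held 13.3 CPM and the other gated cells 22.5. The 10 libraries are of different days, so these tests are on the gates and not on injury.

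Aqp2, a very abundant message, was also counted in cells not known to express it, to a degree that differed between gates and libraries. In the macrophage gate it ranged from 0 to 71.8 CPM with a median of 36.5, and the day 1 value of 0 rests on 22 cells. Over the libraries with at least 10 cells, the lymphocyte gate held 28.9 to 195 CPM of Aqp2, the erythroid gate 272 and 367, and the neutrophil gate 123 to 711. The highest was the neutrophil gate of day 1, with 49 Aqp2 UMIs in 50 cells. The proximal gate held 12.6 to 71.8 CPM of Aqp2, the endothelial gate 4.84 to 128 and the thick ascending limb gate 10.1 to 80.9, all within or below the range of those blood cell gates. The part of free RNA in these values was not tested. The intercalated gate held 81.9 to 977 CPM of Aqp2. In the control it was at 395, above the 54.7 of the macrophage gate, and on day 1 at 567, below the neutrophil gate, so whether those cells express Aqp2 was not settled here. The principal gate, at 1755 to 10455 CPM, was above every value in the gates named here. Aqp3 in the intercalated gate was at 281 to 537 CPM, above its level in the macrophage gate in each of the 10 libraries, which was 0 to 54.7.

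**Figure D1:**
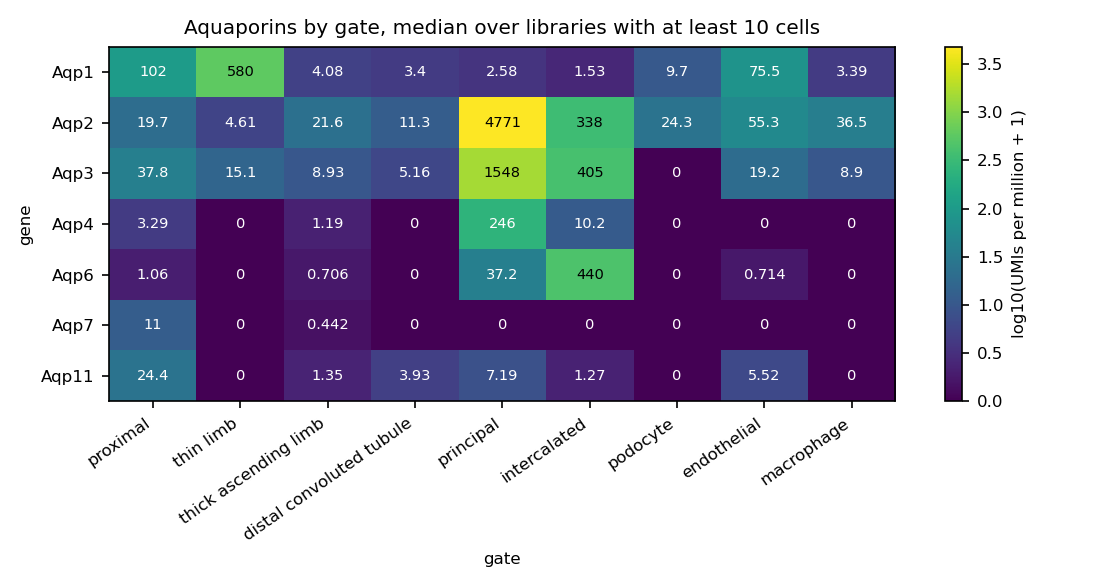
Median level of each aquaporin (rows) in 9 gates (columns) over the libraries with at least 10 cells in the gate, in CPM, with colour on a log10 scale after adding 1. Aqp2, Aqp3 and Aqp4 are highest in the principal gate (medians 4771, 1548 and 246), Aqp6 in the intercalated gate (440.2), Aqp7 and Aqp11 in the proximal gate (11 and 24.4) and Aqp1 in the thin limb gate (580 over 5 libraries) and the proximal gate (102).

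In the principal gate Aqp2 and Aqp3 fell by day 7, and both rose with Aqp4 to day 11. Aqp3 was already low on day 1, in a single library, while Aqp2 was not. Aqp2, the vasopressin-regulated apical channel, stood at 3863 CPM in the control and at 4996, 4190 and 5176 at days 1, 2 and 4, while the day 7 pair had 1755 and 2779, the day 11 pair 9243 and 10455, and the day 14 pair 5436 and 4546. Both day 7 libraries lay below all others, and both day 11 libraries above all others. Aqp3, the basolateral water and glycerol channel, stood at 2686 in the control and at 571, 991 and 1209 at days 1, 2 and 4, while the day 7 pair had 626 and 899, the day 11 pair 3370 and 3655, and the day 14 pair 2914 and 1886. All 5 libraries of days 1 to 7 were below the control and below both libraries of days 11 and 14. Aqp4, the second basolateral channel, stood at 210.0 in the control and at 307, 152 and 283 at days 1, 2 and 4, while the day 7 pair had 128 and 180.3, the day 11 pair 521 and 439, and the day 14 pair 206 and 305. Day 11 was highest here too, and the other days overlapped. These levels rest on 152 to 467 principal-gate cells per library. In such sums fewer cells of a type and less RNA per cell cannot be told apart where a gate mixes types.

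**Figure D2:**
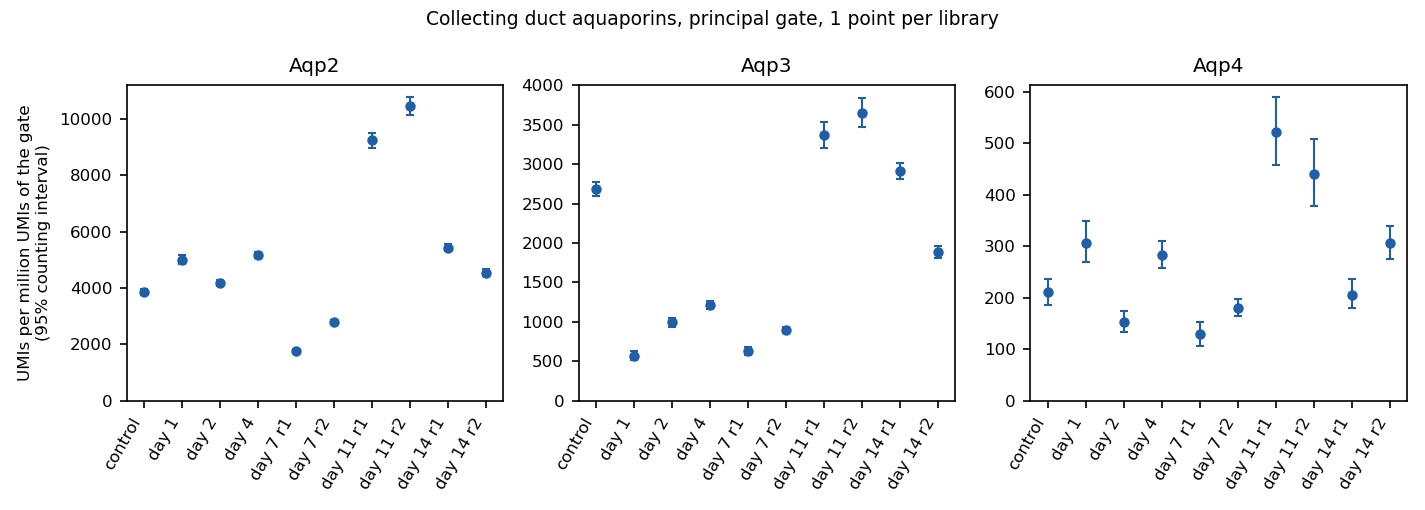
Levels of Aqp2, Aqp3 and Aqp4 in the principal gate, in CPM, 1 point per library with its 95% counting interval and axes from 0. Both are low on day 7 (1755 and 2779 for Aqp2, 626 and 899 for Aqp3), while on day 1 Aqp3 has its lowest value, 571, and Aqp2 is at 4996. r1 and r2 are the 2 libraries of a day.

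Aqp3 was 4.71-fold lower than in the control at day 1 (interval 4.26 to 5.21), 2.71-fold at day 2 (interval 2.55 to 2.89) and 2.22-fold at day 4 (interval 2.10 to 2.35). Over the same days Aqp2 was 1.29-fold (1.24 to 1.35), 1.09-fold (1.04 to 1.13) and 1.34-fold (1.29 to 1.39) the control level. Each of those days is 1 library, so these ratios have no replicate check. Aqp4 was 1.46-fold (1.22 to 1.75) the control on day 1, 0.724-fold (0.602 to 0.869) on day 2 and 1.35-fold (1.16 to 1.57) on day 4. All these ratios are on the total-UMI scale. With TMM scaling Aqp2 stood at 4294.8 CPM in the control and at 5199.1, 4311 and 4681.6 on days 1, 2 and 4. In that order Aqp3 stood at 2985.5, 594, 1020 and 1094, and Aqp4 at 233, 319, 156 and 256.

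On day 7 against the control, 3 of the 6 members tested in the principal gate fell and none rose. Of the 11000 genes tested, 8.48% were called, 4.29% higher and 4.19% lower. Aqp3 fell by 2.19 on the log2 scale (SE 0.26, edgeR quasi-likelihood, Benjamini-Hochberg adjusted p = 2.26e-06). Aqp2 fell by 1.14 (SE 0.26, edgeR adjusted p = 0.00474), and by 0.76 with scaling by total UMIs, where it missed the threshold (edgeR adjusted p = 0.0506). Aqp4 stood at -0.80 (SE 0.28, edgeR adjusted p = 0.0729). It was called lower without the second day 7 library (-1.11, edgeR adjusted p = 0.00476), at a mitochondrial share of at most 25% (edgeR adjusted p = 0.0254), without the 5% of cells with most UMIs (edgeR adjusted p = 0.0373) and with a looser gate (edgeR adjusted p = 0.0395). The genes called over the whole gate were 472 higher and 461 lower, and 1182 higher and 223 lower with total-UMI scaling.

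From day 7 to day 11, 3 of 6 members rose, where 14.2% of genes were called, 7.52% higher and 6.71% lower. Aqp2 rose by 2.37 (SE 0.23, edgeR adjusted p = 5.36e-08), Aqp3 by 2.45 (SE 0.24, edgeR adjusted p = 4.89e-08) and Aqp4 by 1.88 (SE 0.24, edgeR adjusted p = 4.03e-06). Over the gate 827 genes were higher and 738 lower, and 498 and 1433 with total-UMI scaling.

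From day 11 to day 14, 1 of 6 members fell, where 6.63% of genes were called, 2.88% higher and 3.75% lower. Aqp2 fell by 0.82 (SE 0.22, edgeR adjusted p = 0.0217). That call was lost without any single library of days 11 and 14, with edgeR adjusted p from 0.0649 to 0.296. Aqp4 changed by -0.75 (SE 0.23), not called by edgeR (adjusted p = 0.0507), and Aqp3 by -0.38 (SE 0.22, edgeR adjusted p = 0.362). The gate's calls were 317 higher and 412 lower, and 212 and 588 with total-UMI scaling. On day 14 Aqp2 stood at 0.41 (SE 0.27), Aqp3 at -0.12 (SE 0.27) and Aqp4 at 0.33 (SE 0.28) against the control, none of them called (lowest edgeR adjusted p of the 3, 0.492).

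The balance of the 2 best-counted channels shifted with day. There were 1.44 Aqp2 UMIs per Aqp3 UMI in the control (interval 1.377 to 1.502). Day 1 had 8.75 (interval 7.93 to 9.68), day 2 had 4.23 (interval 3.99 to 4.49) and day 4 had 4.28 (interval 4.08 to 4.49). The day 7 pair had ratios of 2.80 and 3.09, the day 11 pair 2.74 and 2.86, and the day 14 pair 1.87 and 2.41. All 9 injured libraries lay above the control, day 1 highest and day 14 nearest. Because both counts come from the same cells, the ratio does not depend on the scaling, but its size also reflects how well each 3' end was counted. It was not tested between days.

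**Figure D3:**
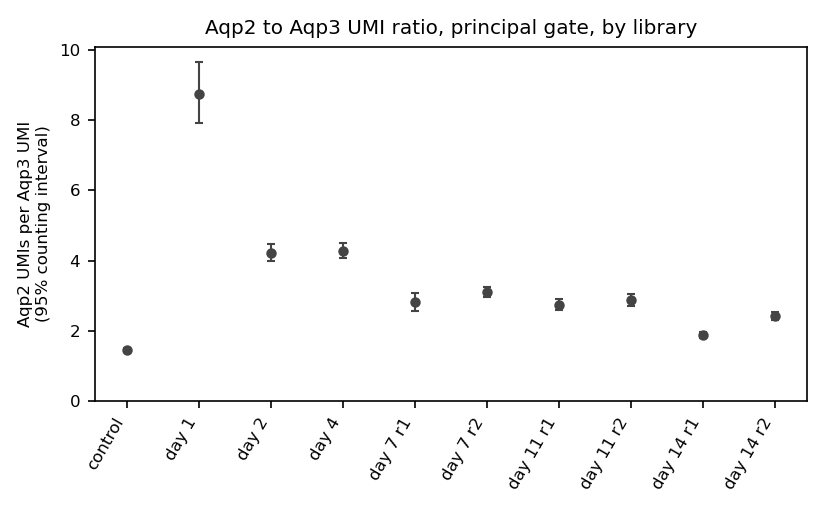
Aqp2 UMIs per Aqp3 UMI in the principal gate, 1 point per library with its 95% counting interval and an axis from 0. The control is lowest at 1.44 and day 1 highest at 8.75, and the libraries of days 7, 11 and 14 lie between 1.87 and 3.09.

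Counted per cell, most principal-gate cells of the control carried both channels. Cells with at least 1 UMI of both Aqp2 and Aqp3 were 89.7% in the control and 53.0%, 69.4% and 64.9% at days 1, 2 and 4, while the day 7 pair had 46.8% and 56.1%, the day 11 pair 88.7% and 87.5%, and the day 14 pair 84.1% and 82.8%. Cells with neither were 4.35% in the control and 25.6% and 19.3% on day 7. On day 1 the cells split towards Aqp2 alone, with 86 cells of 247 carrying only Aqp2 and 7 only Aqp3. Depth differs between libraries, so each cell was also thinned to 1000 UMIs. After thinning, Aqp3 was found in 78.8% of control cells and 35.2% of day 1 cells, while the day 7 pair had 37.5% and 42.5% and the day 11 pair 82.5% and 82.3%. Aqp2 was found in 80.0% of thinned control cells and 81.9% of day 1 cells, while the day 7 pair had 56.9% and 58.7% and the day 11 pair 91.0% and 89.2%. As background, at most 13.2% of the macrophage-gate cells of a library held Aqp2, and at most 9.38% after thinning, while in libraries with at least 10 cells the lymphocyte gate reached 25%. On day 1, with only 22 macrophage-gate cells, 38.0% of the 50 neutrophil-gate cells and 41.2% of the 17 erythroid-gate cells held Aqp2, or 23.3% and 41.2% of the 30 and 17 left after thinning. Aqp3 was held by at most 8% of macrophage-gate cells of a library, and on day 1 by 2% of neutrophil-gate cells. The median depth on day 1 was 1161 UMIs per cell in the neutrophil gate and 2153 in the principal gate, and over all libraries 1189 to 4197 in the macrophage gate and 1778 to 3317 in the principal gate. Unthinned, Aqp3 was found in 92.1% of principal-gate cells in the control, 55.9% on day 1 and 53.5% and 62.5% on day 7, and Aqp2 in 93.3%, 87.9%, 67.6% and 74.3%.

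The promoter regions of Aqp2 and Aqp3, the pair that parted in the single day 1 library, are shown because Aqp2 is textbook for cyclic AMP and GATA control. The motifs were picked for that reason, so a match in Aqp2 was likely beforehand and is not a test. Each window is the 250 bases before the gene's start in RefSeq (GRCm38.p6), Aqp2 at chr15:99578806-99579055 on the plus strand and Aqp3 at chr4:41098184-41098433 on the minus strand, written 5′ to 3′ in the gene's direction. Capitals mark a cyclic AMP response element half-site (TGACG, or CGTCA on the other strand) and a GATA motif (AGATAA, or TTATCT), searched on both strands.
Aqp2: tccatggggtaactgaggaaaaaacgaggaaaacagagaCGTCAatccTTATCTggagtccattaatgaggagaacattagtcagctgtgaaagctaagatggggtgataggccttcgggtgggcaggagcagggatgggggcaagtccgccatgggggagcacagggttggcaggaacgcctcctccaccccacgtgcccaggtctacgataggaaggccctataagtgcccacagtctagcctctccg
Aqp3: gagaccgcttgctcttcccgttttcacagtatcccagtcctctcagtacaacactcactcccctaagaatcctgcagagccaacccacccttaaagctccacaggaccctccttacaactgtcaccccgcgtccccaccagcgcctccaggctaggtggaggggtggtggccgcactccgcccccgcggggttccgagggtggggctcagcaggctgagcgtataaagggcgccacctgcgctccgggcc
Aqp2 held 1 of each, starting 211 and 202 bases before the start, and Aqp3 held neither. Of 32851 such windows of mouse genes, 17.8% held the half-site, 9.99% the GATA motif and 1.18% both. Of the windows found for the other members, only 1 of 2 for Aqp7 held a motif, the GATA letters. No window was found for Aqp4, so its promoter was not searched. A match is a description of letters and not a bound site, and no match says only that these letters are not in this window.

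Aqp2 lies at chr15:99579055-99584547 (plus strand) and Aqp6 at chr15:99601400-99605477 (plus strand), with Aqp5 between them at chr15:99590782-99594829 (plus strand), and Aqp3 at chr4:41092722-41098183 (minus strand) beside Aqp7 at chr4:41033074-41048139 (minus strand), in GENCODE on GRCm38. Aqp1 is at chr6:55336432-55348555 (plus strand) and Aqp11 at chr7:97724006-97738289 (minus strand). The locus of Aqp4 overlaps a gene model on the opposite strand, and whether the counting used strand is not given in the sources used here, so reads of the 2 cannot be told apart.

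Connecting tubule markers in the principal gate moved with the days. Calb1 was at 2112 CPM in the control and 388 to 1002 over days 1 to 7, while the day 11 pair had 1065 and 1480 and the day 14 pair 2383 and 2732. Klk1 was at 2180 to 16869 and S100g at 3698 to 28750, both highest on day 14 and lowest in the first day 7 library. Fxyd4, a principal marker of the gate, was at 940 in the control and 421.5 and 641 on day 7. It was at 2953 and 3235 on day 11 and at 658.5 and 851 on day 14. Over all libraries the gate's other markers moved less, Hsd11b2 at 5740 to 10881, Scnn1b at 312 to 676 and Scnn1g at 286 to 525. In principal-gate cells with no Calb1 UMI, Aqp2 stood at 6269 CPM in the control and at 5334, 3742 and 4069 at days 1, 2 and 4, while the day 7 pair had 1593 and 2657, the day 11 pair 11495 and 14021, and the day 14 pair 12504 and 10089. In those cells days 11 and 14 overlapped. They numbered 65 in the control, 172 and 218 on day 7, 111 and 69 on day 11, and only 37 and 56 on day 14. Cells with no Calb1 UMI were also shallower, with a median of 2046 UMIs in the control against 4080 in cells with Calb1. Fitted on those cells alone, a selection chosen after seeing the data, Aqp2 fell by 1.92 on day 7 (edgeR adjusted p = 2.79e-05), rose by 2.77 to day 11 (edgeR adjusted p = 5.21e-11) and was at -0.17 from day 11 to day 14 (edgeR adjusted p = 0.857). Aqp3 in those cells fell by 2.88 on day 7 (edgeR adjusted p = 7.38e-11) and Aqp4 fell by 1.43 (edgeR adjusted p = 0.00636). On day 1 Aqp3 in these cells was 5.73-fold lower than in the control (4.85 to 6.79) and Aqp2 1.18-fold lower (1.09 to 1.27).

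Of 26 genes of vasopressin signalling and of the making and traffic of Aqp2, 24 were tested in the principal gate. On day 7 against the control, 2 fell and none rose, where 8.48% of all genes were called, so the count is near the background. The list's median log2 change was -0.09, beside 0.06 over all genes tested. Avpr2, the vasopressin receptor that drives Aqp2, stood at 330.0 CPM in the control and at 207, 170.5 and 308 at days 1, 2 and 4, while the day 7 pair had 121 and 197, the day 11 pair 753 and 631, and the day 14 pair 501 and 582. It fell by 1.40 on day 7 (SE 0.27, edgeR adjusted p = 0.000853) and rose by 2.35 to day 11 (SE 0.24, edgeR adjusted p = 9.43e-08). Gata2, a GATA transcription factor of principal cells, fell by 0.79 on day 7 (SE 0.24, edgeR adjusted p = 0.0388) and rose by 1.06 to day 11 (SE 0.21, edgeR adjusted p = 0.000834). Rab11a, a GTPase of recycling vesicles, stood at 0.85 (SE 0.28, edgeR adjusted p = 0.0582) and Elf5, an ETS transcription factor of principal cells, at 1.21 (SE 0.42, edgeR adjusted p = 0.0760) on day 7, neither called. On the total-UMI scale Avpr2 and Gata2 were also lower in both day 7 libraries than in the control and higher in both day 11 libraries than on day 7.

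From day 7 to day 11, 4 of the 24 rose and 4 fell, where 7.52% of all genes rose and 6.71% fell (list median -0.05, beside -0.08). Ctnnb1, which encodes beta-catenin, fell by 1.11 (SE 0.26, edgeR adjusted p = 0.00432). Prkar2a, a regulatory subunit of protein kinase A, fell by 3.17 (SE 0.72, edgeR adjusted p = 0.00359) on 1 UMI in each day 11 library. From day 11 to day 14, 1 rose and 2 fell, where 2.88% of all genes rose and 3.75% fell (list median 0.08, beside 0.04). Elf3, an epithelial transcription factor of the ETS family, fell by 1.46 (SE 0.26, edgeR adjusted p = 0.000657), from 310 and 427 CPM on day 11 to 119.5 and 119.2 on day 14. Prkar2a rose by 3.16 (SE 0.75, edgeR adjusted p = 0.00868) and Avpr1a, another vasopressin receptor, fell by 3.41 (SE 0.76, edgeR adjusted p = 0.00557) to 1 and 2 UMIs. On day 14 against the control 1 of 24 fell and none rose, where 1.94% of all genes were called (list median -0.08, beside 0.04). It was Avpr1a, at -3.73 (SE 0.72, edgeR adjusted p = 0.00492). Avpr2 (0.76), Elf5 (1.15) and Creb1 (-1.02), a transcription factor that binds cyclic AMP response elements, were next and not called (edgeR adjusted p of 0.180, 0.196 and 0.200). Gata2 from day 11 to day 14 stood at -0.56 (edgeR adjusted p = 0.110). Counts of 1 or 2 UMIs make the sizes for Prkar2a and Avpr1a uncertain.

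Aqp6, the vesicular channel of intercalated cells, was at far higher levels in 1 kind of intercalated cell than in the other. In the whole intercalated gate it stood at 649 CPM in the control and at 451, 181 and 352 at days 1, 2 and 4, while the day 7 pair had 528 and 201, the day 11 pair 161 and 429, and the day 14 pair 668 and 554. The pairs of days 7 and 11 differed widely here, and the days overlapped. The gate was split by anion exchanger, since Slc4a1 marks acid-secreting type A cells and Slc26a4 (pendrin) marks base-secreting cells. In cells with Slc4a1 and no Slc26a4, Aqp6 stood at 1043 in the control and at 1328, 649.8 and 792 at days 1, 2 and 4, while the day 7 pair had 917 and 529.9, the day 11 pair 699.6 and 1194, and the day 14 pair 1088 and 1119. In cells with Slc26a4 and no Slc4a1, it lay between 0 and 92.8, so the pair did not overlap within any library or between libraries. In the 8 libraries with at least 10 Slc4a1 cells, at least 58.3% of these cells held Aqp6. Of the Slc26a4 cells 0 to 15.7% per library held it, with 39 UMIs in 406 cells over all libraries. The other cells of the gate, with both exchangers or neither, are not shown in this split. The Slc26a4 cells held 0 Aqp6 UMIs in 4 libraries, where a count of 3 UMIs would have stood at 11.1 to 103 CPM. These levels rest on few cells, 8 to 89 per library with Slc4a1 only and 11 to 55 with Slc26a4 only.

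**Figure D4:**
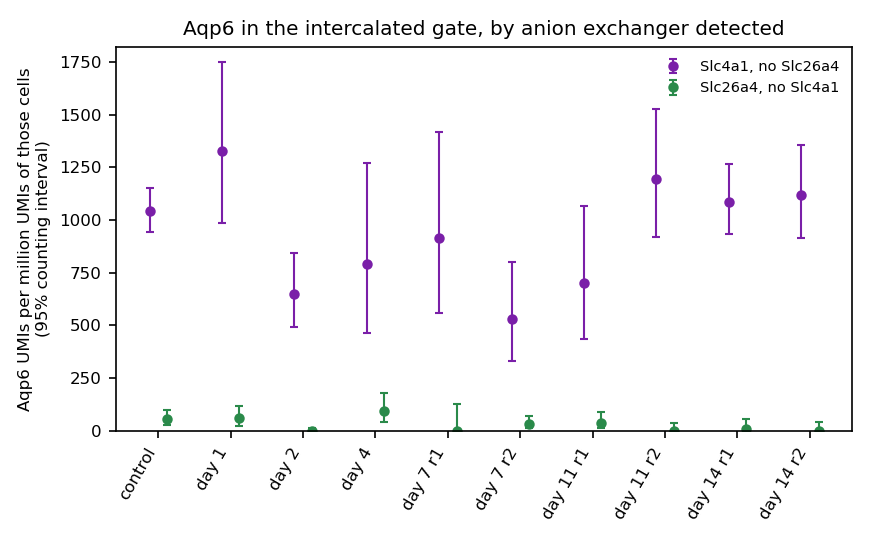
Aqp6 in CPM, by library, in intercalated-gate cells that hold a UMI of Slc4a1 and none of Slc26a4 (purple) or the reverse (green), with 95% counting intervals and an axis from 0. The Slc4a1 cells lie between 529.9 and 1328 and the Slc26a4 cells between 0 and 92.8.

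Aqp6 was also tested in the principal gate, where it stood at 107 CPM in the control, and the pairs of days 7, 11 and 14 had 71.4 and 50.4, 35.6 and 38.8, and 28.2 and 5.04. It fell by 1.22 on day 7 against the control (SE 0.39, edgeR adjusted p = 0.0489), a call lost with total-UMI scaling (-0.84, edgeR adjusted p = 0.145) and in DESeq2 (adjusted p = 0.551). It was also lost without the second day 7 library or either day 11 library, and in 7 of 16 alternatives in all. On day 14 against the control 1 of 6 members fell, where 1.94% of genes were called, 0.864% higher and 1.07% lower. It was Aqp6, by 2.67 (SE 0.44, edgeR adjusted p = 0.000992). All 139 control UMIs came from the 18 principal-gate cells that held Aqp6, each of which also held an intercalated marker UMI, and the 170 cells with no such UMI held 0. In the other libraries cells with no such UMI held 0 to 5 Aqp6 UMIs, among them 4 of 120 in the second day 7 library and 2 of 6 in the second day 14 library. The summed intercalated markers in the gate were at 849 CPM in the control, 784 and 752 on day 7, and 293 and 193 on day 14. The part of these markers in both calls was not tested.

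In the proximal gate, Aqp1, Aqp11 and Aqp3 fell by day 7 and rose by day 11, and Aqp7 had its lowest level in the control. Aqp1, the main water channel of this segment, stood at 141 CPM in the control and at 13.3, 70.0 and 82.6 at days 1, 2 and 4, while the day 7 pair had 35.3 and 69.2, the day 11 pair 122 and 166, and the day 14 pair 129 and 121. Libraries of days 1 to 7 were all below the control and all below days 11 and 14. Aqp11, the channel of the endoplasmic reticulum, stood at 24.6 in the control and at 10.6, 24.1 and 19.8 at days 1, 2 and 4, while the day 7 pair had 2.86 and 7.31, the day 11 pair 42.8 and 50.1, and the day 14 pair 45.7 and 47.8. Its 4 late libraries were all above the control. Aqp3 stood at 42.3 in the control and at 15.0, 34.4 and 18.1 at days 1, 2 and 4, while the day 7 pair had 15.3 and 14.6, the day 11 pair 59.9 and 47.3, and the day 14 pair 41.2 and 55.6. Aqp7, the glycerol channel, stood at 5.71 in the control and at 16.9, 10.9 and 16.3 at days 1, 2 and 4, while the day 7 pair had 17.2 and 19.4, the day 11 pair 10.1 and 6.94, and the day 14 pair 11.1 and 10.2. Aqp3 in the thick ascending limb gate, which is not known for it, was at 2.80 to 14.2, and below the proximal gate in each of the 10 libraries. In the endothelial gate it was at 7.26 to 36.5, above the proximal gate on days 4 and 7. The macrophage gate of the control had 54.7, from 3 UMIs. The low proximal values of Aqp3 on days 1, 4 and 7 are therefore near what other cells held, and the part of free RNA in them was not tested. Every injured library was above the control for Aqp7, with 18 to 203 UMIs behind each value. The day 7 values of Aqp11 rest on 3 and 26 UMIs in 416 and 655 cells.

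**Figure D5:**
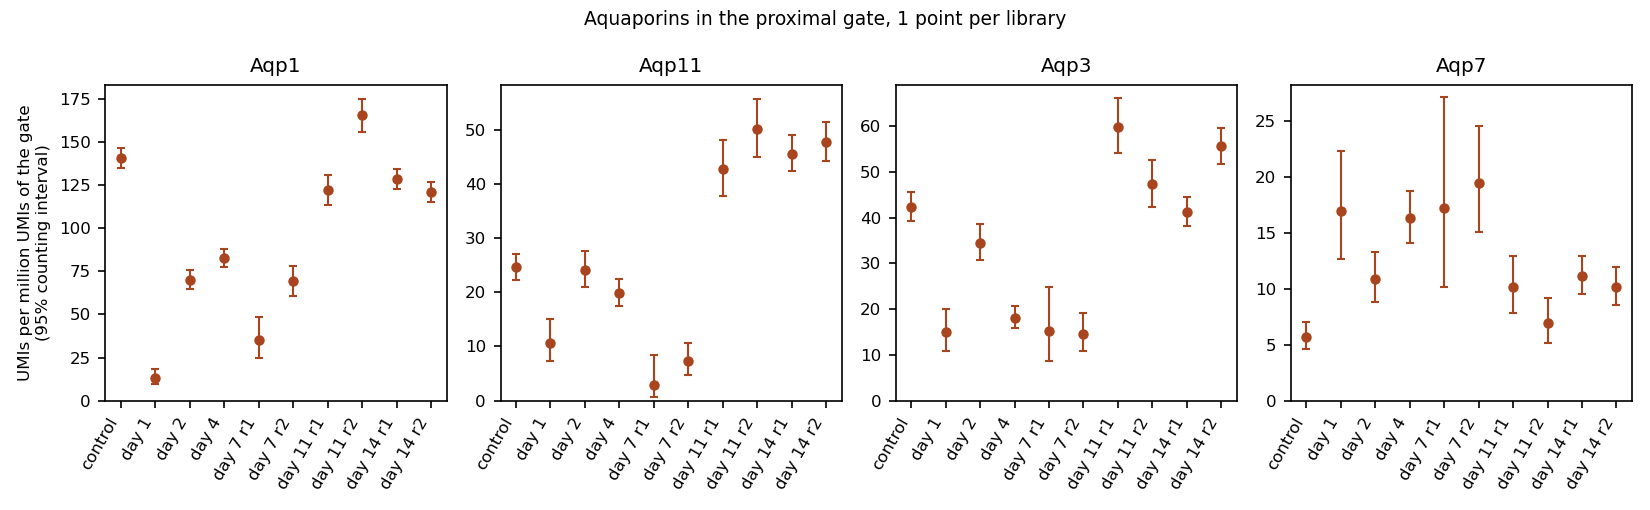
Levels of Aqp1, Aqp11, Aqp3 and Aqp7 in the proximal gate, in CPM, 1 point per library with its 95% counting interval and axes from 0. Aqp1 is at 141 in the control and 13.3 on day 1, Aqp11 is lowest on day 7 (2.86 and 7.31), and Aqp7 is lowest in the control (5.71).

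Aqp1 was 10.6-fold lower on day 1 than in the control (7.75 to 14.9), 2.01-fold lower on day 2 (1.838 to 2.201) and 1.71-fold lower on day 4 (1.58 to 1.84). Aqp11 was 2.32-fold lower on day 1 (1.61 to 3.43), and on day 2 its ratio to the control was 0.980 (0.826 to 1.16). Aqp7 was 2.97-fold higher on day 1 (2.07 to 4.23), 1.91-fold on day 2 (1.42 to 2.57) and 2.85-fold on day 4 (2.22 to 3.69). These are single libraries, and the ratios are on the total-UMI scale. With TMM scaling Aqp11 stood at 33.1 CPM in the control and at 8.95, 22.5 and 16.4 on days 1, 2 and 4. In that order Aqp7 stood at 7.66, 14.3, 10.1 and 13.5, and Aqp1 at 189, 11.2, 65.3 and 68.4.

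On day 7 against the control, 3 of 7 members fell in the proximal gate and none rose. Of the 14872 genes tested, 38.0% were called, 18.8% higher and 19.2% lower. Aqp11 fell by 2.89 (SE 0.32, edgeR adjusted p = 5.79e-05), Aqp3 by 2.39 (SE 0.28, edgeR adjusted p = 7.49e-05) and Aqp1 by 2.23 (SE 0.31, edgeR adjusted p = 0.000270). With total-UMI scaling the falls were smaller and still called, at -2.02 for Aqp11, -1.51 for Aqp3 and -1.35 for Aqp1. Aqp7 stood at 0.82 (SE 0.32, edgeR adjusted p = 0.0641), and at 1.70 with total-UMI scaling (edgeR adjusted p = 0.00138). With TMM scaling it was called at a mitochondrial share of at most 25% (1.01, edgeR adjusted p = 0.0277), with a looser gate (0.89, edgeR adjusted p = 0.0433) and with a stricter gate (0.90, edgeR adjusted p = 0.0490). Over the gate 2791 genes were higher and 2859 lower, and 6971 and 886 with total-UMI scaling. From day 7 to day 11, 3 of 7 rose, where 38.9% of genes were called, 19.3% higher and 19.6% lower. Aqp11 rose by 3.68 (SE 0.29, edgeR adjusted p = 6.52e-06), Aqp3 by 2.61 (SE 0.25, edgeR adjusted p = 1.96e-05) and Aqp1 by 2.13 (SE 0.28, edgeR adjusted p = 0.000144). With total-UMI scaling the rises were 2.93, 1.85 and 1.38, all still called. Aqp7 stood at -0.37 (SE 0.28, edgeR adjusted p = 0.310), and at -1.13 with total-UMI scaling (edgeR adjusted p = 0.00501). The calls over the gate were 2876 higher and 2912 lower, and 1213 and 7100 with total-UMI scaling.

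On day 14 against the control, 0 of 7 members were called by edgeR or by DESeq2, where edgeR called 8.34% of genes, 3.66% higher and 4.68% lower, and 2 of 7 had an unadjusted p under 0.05. These were Aqp11 at 0.77 (SE 0.26, edgeR adjusted p = 0.0853) and Aqp7 at 0.75 (SE 0.29, edgeR adjusted p = 0.138). The adjusted p of Aqp11 was 0.0269 and 0.0271 in edgeR without either day 7 library. Over the gate 545 genes were higher and 696 lower, and 964 and 466 with total-UMI scaling, which moved the median gene by 0.18.

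Havcr1 (kidney injury molecule 1) marks injured proximal cells, and cells with at least 2 UMIs of it were compared with cells with none in the same gate. On day 4, with 1004 such cells, Aqp1 stood at 59.2 CPM with Havcr1 and 113 without. Aqp11 stood at 13.4 with Havcr1 and 25.3 without, and Aqp7 at 16.6 and 16.4. Over the 5 libraries of days 1 to 7 Aqp11 was lower with Havcr1 in 4 and higher on day 1, at 11.3 with and 9.31 without. In the first day 7 library, where the whole gate held 3 Aqp11 UMIs, that direction cannot be read. Aqp7 was lower with Havcr1 in 3 of the 5, with 15.0 and 22.4 on day 1. In each of these libraries cells with Havcr1 held more UMIs per cell, with a median of 3932 against 1805 on day 4. On day 7 Aqp1 was at 29.9 and 35.4 with Havcr1 and at 40.7 and 146 without, and Aqp7 at 19.5 and 18.9 with and 16.3 and 21.1 without. In each of the 5 libraries of days 1 to 7, Aqp1 was lower in the Havcr1 cells than in cells without it, and in days 1 and 2 it was at 10.9 and 31.9 with and 18.6 and 80.5 without. Cells without Havcr1 on day 1 were still below the control. Cells with Havcr1 in other libraries numbered at most 6.

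Along the proximal tubule Aqp7 and Aqp3 differed between straight and convoluted cells, and Aqp1 did so little. In control cells split by segment markers, Aqp1 stood at 138 CPM in straight cells and 142 in convoluted cells, and Aqp11 at 28.5 and 19.2. Aqp7 stood at 24.1 CPM in straight cells and 2.85 in convoluted cells, while Aqp3 stood at 19.6 in straight and 55.6 in convoluted cells. On days 11 and 14 Aqp7 was at 22.5 to 34.2 in straight and 4.22 to 8.70 in convoluted cells, with no overlap. On days 4 and 7 the convoluted cells held 17.7 to 18.5 of Aqp7 and the straight cells 17.5 to 23.6. The Aqp7 level of convoluted cells was higher on every injured day than in the control, as values. The control's 2.85 and the 4.22 of the second day 11 library rest on few UMIs, and no test of the split was made. Straight cells numbered 4 and 10 on days 2 and 1, too few to read, and 27 and 98 on day 7, against 400 in the control. Whether the marker split held the same kinds of cells on each day was not tested.

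Outside the proximal tubule Aqp1 was counted in the thin limb and endothelial gates, both known sites of the channel. In thin limb cells the day 11 pair had 2981 and 2930 CPM, day 4 had 580 and the day 7 pair 347 and 166. Those levels come from 11 to 26 cells, and the control had 8 such cells at 2345. In the endothelial gate Aqp1 stood at 110.3 in the control and at 43.1, 34.2 and 108 at days 1, 2 and 4, while the day 7 pair had 42.6 and 179, the day 11 pair 227 and 126, and the day 14 pair 28.8 and 29.8. The day 7 libraries span most of that range. The day 14 libraries rest on 8 and 6 UMIs.

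Aqp4, a collecting duct channel, was also counted in straight proximal cells, mainly in the control and on day 14. It stood at 21.8 CPM there in the control, 34.5 and 141 on day 14, and 1.94 to 7.88 on days 4 to 11, where each library held at most 3 UMIs. In convoluted cells it was 0 to 4.86 in all libraries. The day 14 UMIs came from 32 cells of 483 and 60 of 288, with up to 9 UMIs in a cell. Those cells held 0 and 4 Aqp2 UMIs and 9 and 7 UMIs of the principal markers in all. From day 11 to day 14 in the whole proximal gate 1 of 7 members rose, where 9.51% of genes were called, 3.93% higher and 5.59% lower. It was Aqp4, by 3.03 (SE 0.63, edgeR adjusted p = 0.0144), from 4 and 7 UMIs to 60 and 141. The call was lost without either day 11 library or without the second day 14 library. With a replicate left out the change ranged from 2.19 to 3.555.

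Over all kept cells, the sums mix these changes with the share of each segment. On day 7 against the control 3 of 7 members fell. Of the 17495 genes tested, 36.7% were called, 17.8% higher and 18.9% lower. Aqp11 fell by 2.72 (SE 0.31, edgeR adjusted p = 5.89e-05), Aqp1 by 2.59 (SE 0.26, edgeR adjusted p = 2.38e-05) and Aqp3 by 1.25 (SE 0.25, edgeR adjusted p = 0.00242). With total-UMI scaling Aqp3 was at -0.55 and not called (edgeR adjusted p = 0.0785), while Aqp4, at 0.42 with TMM (SE 0.35, edgeR adjusted p = 0.379), was at 1.12 and called (edgeR adjusted p = 0.0277). Aqp6 was at -0.85 (SE 0.34, edgeR adjusted p = 0.0719), not called, and was called lower in 5 of 12 alternatives. Aqp2 was at -0.10 (SE 0.28, edgeR adjusted p = 0.812), and at 0.60 with total-UMI scaling. The principal gate held 4.12% of the cells in the control and 8.62% and 9.06% on day 7. Over all genes 3115 were higher and 3307 lower, and 7594 and 1416 with total-UMI scaling. From day 7 to day 11, 5 of 7 members rose, where 44.7% of genes were called, 22.2% higher and 22.5% lower, with Aqp11 at 3.74 (SE 0.29, edgeR adjusted p = 3.37e-06) and Aqp1 at 3.19 (SE 0.24, edgeR adjusted p = 3.13e-06). Aqp3 rose by 0.96 (SE 0.21, edgeR adjusted p = 0.00372), Aqp7 by 0.76 (SE 0.25, edgeR adjusted p = 0.0293) and Aqp2 by 0.71 (SE 0.23, edgeR adjusted p = 0.0254). With total-UMI scaling these last 3 were at 0.31, 0.11 and 0.06 and not called in edgeR. Without the first day 7 or the first day 11 library neither Aqp2 (edgeR adjusted p of 0.111 and 0.0543) nor Aqp7 (0.103 and 0.150) was called, and Aqp2 was not called without the second day 11 library either (edgeR adjusted p = 0.0994). DESeq2 did not call Aqp7 (adjusted p = 0.130). Aqp6 stood at -0.77 (SE 0.31, edgeR adjusted p = 0.0624), and was called lower in 7 of 13 alternatives, among them no low-count filter (edgeR adjusted p = 0.00243), only the 2 groups (edgeR adjusted p = 0.0283) and total-UMI scaling (-1.44, edgeR adjusted p = 0.00294). The calls were 3888 higher and 3931 lower, and 1888 and 8394 with total-UMI scaling.

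From day 11 to day 14, 0 of 7 members were called by edgeR or DESeq2, where edgeR called 18.0% of genes, 9.02% higher and 8.97% lower, and 1 of 7 had an unadjusted p under 0.05. That was Aqp7, at 0.74 (SE 0.24, edgeR adjusted p = 0.05005). On day 14 against the control 2 members rose and 1 fell, where 8.43% of genes were called, 4.72% higher and 3.71% lower. Aqp11 rose by 1.38 (SE 0.30, edgeR adjusted p = 0.0228), from 14.8 CPM in the control to 34.5 and 36.7. Aqp7 rose by 1.37 (SE 0.29, edgeR adjusted p = 0.0201), from 3.33 to 8.29 and 7.58. Aqp6 fell by 1.37 (SE 0.34, edgeR adjusted p = 0.0351), from 31.4 to 14.4 and 8.05. Without the second day 14 library none of the 3 was called, at edgeR adjusted p of 0.0789, 0.0616 and 0.164, and Aqp7 was not called without the first either (edgeR adjusted p = 0.0656). DESeq2 did not call Aqp7 (adjusted p = 0.0538), and Aqp6 was not called without the 5% of cells with most UMIs (-1.08, edgeR adjusted p = 0.105). The proximal gate held 74.1% and 74.3% of day 14 cells against 60.7% in the control. The intercalated gate held 1.585% and 1.36% of day 14 cells against 2.66% in the control. Aqp6 within the intercalated gate stood at 648.9 CPM in the control and at 668.5 and 553.9 on day 14. The part of these shares in the calls was not tested. Genes over the threshold were 1578 higher and 1570 lower from day 11 to day 14 (804 and 1940 with total-UMI scaling), and 825 higher and 649 lower on day 14 against the control (569 and 816).

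Genes patterned like each member were ranked by Pearson r of log2 levels over 68 library-by-gate sums, among 11986 genes, leaving out the gate markers. The sums share libraries and depth, and they span gates as well as days. A high r can therefore come from differences between cell types alone, and r is a description. Aqp2 was closest to Kcne1 (0.915), Avpr2 (0.915) and Gm20485 (0.912), and Aqp3 to Kcne1 (0.954), Tmem45b (0.905) and Mcoln3 (0.902). Aqp4 was closest to Gm20485 (0.960), Mgat4c (0.917) and Avpr2 (0.914). Aqp6 was closest to Dmrt2 (0.967), Edn3 (0.960) and Kit (0.953). Aqp7 was closest to Thpo (0.897), Slc6a20a (0.890) and Clrn3 (0.886), Aqp1 to Afap1l1 (0.826), Calml4 (0.826) and Rgl1 (0.818), and Aqp11 to 4931406C07Rik (0.825), Gm15638 (0.819) and Gm853 (0.818). Among the members, Aqp2 had r = 0.921 with Aqp4 and 0.901 with Aqp3. Aqp1 had r = 0.606 with Aqp11, 0.483 with Aqp7 and -0.365 with Aqp2.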

How the data were processed

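Per the labels' protocols, the authors made libraries of the 3' ends of cDNA from dissociated kidney cortex by Drop-seq, using an adapted Nextera XT kit. The authors deposited 1 table of counts per library, with gene symbols as names and barcodes as columns, whose whole numbers were read here as UMIs, which the labels do not state. Tables hold 3585 to 10800 barcodes. The submitters' processing notes name Bowtie2 2.2.7 and the build mm10. Other steps, strand included, are not given in the sources used here.

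Cells needed 500 UMIs, 500 detected genes and a mitochondrial share of 50% or less. At a limit of 25% the control would keep 3361 of its 6134 cells, and the day 7 libraries 3615 of 3621 and 5096 of 5154. Mitochondrial UMIs count in the totals behind CPM. A cell entered the gate whose markers held the most raw UMIs, if these were at least 3, from at least 2 markers, and at least 2 times the next type's. Haemoglobin counted for the erythroid gate only from 10% of a cell's UMIs, a limit set after haemoglobin was seen in other cells. No doublet caller was run. The 2788 cells with markers of several types stayed ungated, and leaving out the 5% of cells with most UMIs was an alternative. The genes named are the 7 members, the 4 genes of the vasopressin list with the lowest p per comparison in the principal gate, the gate of most Aqp2 UMIs, and the 3 genes most like each member. The members, lists and gates were chosen with earlier results of these data known.

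Summed counts per library and gate (at least 10 cells) were tested with edgeR 4.0.16 in R 4.3.3, with its low-count filter, TMM scaling and quasi-likelihood F test, 1 term per day, Benjamini-Hochberg adjusted over all genes at 0.05. An SE is the absolute log2 change divided by the square root of F. On simulated counts the fit was tested before use. Alternatives were DESeq2 1.42.0, no low-count filter, total-UMI scaling, only the 2 groups compared, each replicate left out, a replicate block, other cell filters and other gates. Home gates were tested by exact sign flips (scipy 1.17.1). Same-numbered libraries of different days do not share an animal or batch in the labels, and their correlations ranged from -0.0779 to 0.124 over the sums, so the numbers were not taken to pair them.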

Additional observations from a re-analysis of the deposited data

Results flagged for a closer look

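Some aquaporins moved in opposite directions in different gates under the same contrast, with both libraries of a day on 1 side of the control in 1 gate and on the other side in another gate. None of these differences between gates was tested. They are given as the mean log2 ratio of the level to the control, without TMM scaling. On day 7 Aqp2 was at -0.81 in the principal gate and -0.36 in the intercalated gate, but at 1.06 in the proximal gate and 1.66 in the thick ascending limb gate. With TMM scaling Aqp2 in the proximal gate was at 0.13 on day 7 (edgeR adjusted p = 0.820). On that scale its 2 day 7 libraries, at 29.2 and 12.5 CPM, lay on either side of the control at 16.9. On day 11 Aqp2 was at 1.35 in the principal gate and 0.29 in the proximal gate, but at -0.50 in the intercalated gate. On day 11 Aqp3 was at 0.39 in the principal gate and 0.33 in the proximal gate, but at -0.16 in the intercalated gate. Beside these ratios, Aqp2 in the macrophage gate was at 54.7 CPM in the control, from 3 UMIs in 40 cells, and at 71.8 and 38.5 on day 7. In the proximal gate it was at 12.6 in the control and at 41.0 and 16.9 on day 7, and in the thick ascending limb gate at 10.1, 35.2 and 29.0, all below the macrophage gate of the same library. The part of free RNA in these ratios was not tested.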

How the results depend on the processing

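Few cells stand behind some gates, with 152 to 467 per library in the principal gate, 63 to 163 in the intercalated gate and 0 to 26 in the thin limb gate. The 7 gate comparisons kept their call under every alternative run. Of the counts of members called, these moved by over 1.5 times under some alternative. In all cells, day 11 against day 7 had 5 called, all higher. It had 3 with total-UMI scaling, Aqp1 and Aqp11 higher and Aqp6 lower, and 3 to 6 with a replicate left out. Day 14 against control had 3, and 0 to 3 with a replicate left out. Day 14 against day 11 had 0, but 1 without the low-count filter, 2 with only the 2 groups fitted, 1 at a mitochondrial share of at most 25%, and 0 to 1 with a replicate left out. In the principal gate, day 7 against control had 3, and 1 with total-UMI scaling. Day 14 against control had 1, and 2 with only the 2 groups fitted, while DESeq2 gave no adjusted p for Aqp6. Day 14 against day 11 had 1, but 2 without the low-count filter, with total-UMI scaling, with only the 2 groups and without the 5% of cells with most UMIs, 0 without Calb1-bearing cells, and 0 to 2 with a replicate left out. In the proximal gate, day 7 against control had 3, 5 with a stricter gate, and 4 with total-UMI scaling, a mitochondrial share of at most 25% or a looser gate. Day 14 against control had 0, but 2 without the low-count filter, 1 with total-UMI scaling, 1 with only the 2 groups, and 0 to 1 with a replicate left out. Day 14 against day 11 had 1, and 0 to 1 with a replicate left out. The causes were not tested. Total-UMI scaling, the erythroid gate and the Calb1 selection were chosen after seeing the data.

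With the replicate number as a block, 2 members rather than 1 were called in the principal gate from day 11 to day 14, Aqp4 in addition at -0.82 (edgeR adjusted p = 0.00889). Under the block Aqp4 in all cells from day 11 to day 14 was at -0.0425 in place of 0.09. The block was fitted for day 11 against 7 and day 14 against 11, not for the comparisons with the control, and changed no other member's call there. The number is shared by label only: same-numbered libraries of days 7 and 11 correlated at 0.108 to 0.124 over the sums, and those of days 11 and 14 at -0.0779 to -0.0294.

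Directions that turned belonged to changes that were not called. In all cells, Aqp1 on day 14 against control was at 0.23 and turned to -0.0183 without the 5% of cells with most UMIs, as Aqp3 (-0.22) did to 0.0481. On day 7 Aqp2 (-0.10) and Aqp7 (-0.14) turned to 0.60 and 0.56 with total-UMI scaling, and Aqp2 ranged from -0.52 to 0.22 with a replicate left out. From day 7 to 11 Aqp4 (0.15) turned to -0.50 with that scaling and ranged from -0.0910 to 0.47. From day 11 to 14 Aqp3 (0.07) turned to -0.0923 with that scaling and -0.0220 with 2 groups, and ranged from -0.0658 to 0.19. Aqp4 (0.09) turned to -0.0681 with that scaling and ranged from -0.43 to 0.48. Aqp6 (0.26) turned to -0.0670 at 25% mitochondrial UMIs and ranged from -0.23 to 0.63. In the proximal gate from day 11 to 14, Aqp11 (-0.02) turned to 0.0657 without the low-count filter, 0.00731 with total-UMI scaling, 0.0367 at 25% and 0.00119 with a looser gate, and ranged from -0.12 to 0.0917. Aqp3 (-0.18) ranged from -0.40 to 0.0163 there, and on day 14 against control (0.04) from -0.18 to 0.23, with -0.0395 without the cells with most UMIs. Aqp4 on day 7 there (-0.93) ranged from -1.77 to 0.19. In the principal gate, Aqp3 on day 14 against control (-0.12) ranged from -0.48 to 0.17, and was at 0.15 without Calb1-bearing cells. From day 11 to 14 without those cells Aqp3 was at 0.0478 and Aqp4 at 0.46, and Aqp6 from day 7 to 11 turned to 0.97 without the cells with most UMIs.

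Counts over all genes that moved by over 1.5 times under some alternative were these, with the range when a replicate was left out. In the principal gate edgeR against DESeq2 gave 933 against 350 (day 7 against control), 1565 against 674 (day 11 against 7), 729 against 419 (day 14 against 11) and 213 against 56 (day 14 against control). Without Calb1-bearing cells the 4 counts were 317, 821, 202 and 47. Day 7 against control had 1405 with total-UMI scaling. Day 14 against control had 326 without the low-count filter, 1248 with only the 2 groups, 331 without the cells with most UMIs and 122 to 614 with a replicate left out. With a replicate left out day 7 against control had 806 to 1366, day 11 against 7 had 528 to 2103 and day 14 against 11 had 201 to 1128. In the proximal gate, day 14 against control went from 1241 to 2101 without the filter, 2421 with 2 groups and 269 to 2156 with a replicate left out, and day 14 against 11 from 1415 to 2354 and 189 to 2128. Day 11 against 7 there went from 5788 to between 3774 and 5363 with a replicate left out. In all cells, day 14 against control went from 1474 to 2659 without the filter, 3722 with 2 groups and 358 to 2198 with a replicate left out, and day 14 against 11 from 3148 to between 1326 and 3549.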

Other observations

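Of the other mouse aquaporin genes, Mip, Aqp5, Aqp8 and Aqp12 were nearly absent, with 18, 8, 63 and 4 UMIs over all kept cells. Aqp9, a glycerol and solute channel better known from liver, had 147 UMIs in all, and most of them were in proximal-gate cells of day 14. The proximal gate held 0 Aqp9 UMIs in the control and 3, 4 and 4 at days 1, 2 and 4, while the day 7 pair had 1 and 0, the day 11 pair 0 and 1, and the day 14 pair 30 and 60. Over all kept cells Aqp9 had 2 UMIs in the control and 7, 7 and 9 at days 1, 2 and 4, while the day 7 pair had 11 and 14, the day 11 pair 2 and 1, and the day 14 pair 32 and 62. On day 7, 4 and 8 of these were in the macrophage gate. In CPM of the proximal gate, day 14 was at 1.91 and 4.26, and no other library was above 0.997. The second day 14 library was also the one with the most Aqp4 in straight proximal cells. Aqp9 overlaps 2 gene models on the opposite strand, Gm47268 and Gm32511, and reads of these cannot be told apart. Aqp9 was singled out after its values were seen, so no test is given.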
